A study of Mus musculus with 17 samples.

Results

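The cytosolic ribosomal protein genes encode the protein part of the ribosome, the machine that translates mRNA. They were chosen here by symbol: every gene named Rpl or Rps with a number and an optional short suffix, together with Rplp0, Rplp1, Rplp2 and Rpsa, leaving out Rps6 kinases, pseudogenes and Y-linked genes. The rule found 86 of the 54446 genes in the deposited bulk tables, 53 of the large (60S) and 33 of the small (40S) subunit, and 83 of them passed the filter on low counts in the larger set of bulk libraries.

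Small-subunit proteins hold the mRNA and the decoding site, and large-subunit proteins surround the site where peptide bonds form. The P-stalk proteins Rplp0, Rplp1 and Rplp2 recruit translation factors to the large subunit. In vertebrates, mRNAs of nearly all ribosomal proteins begin with a C followed by a run of pyrimidines, the 5′ terminal oligopyrimidine or TOP tract, through which the growth-control kinase mTOR adjusts their translation as a group. In lymphocytes, ribosome production is known to go up with activation and growth.

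The study measured RNA of innate lymphoid cells (ILCs), lymphocytes without rearranged antigen receptors, sorted from the skin of C57BL/6 mice as live, lineage-negative, γδTCR-negative, CD90+ cells. Bulk RNA-seq covered 14 libraries. In RORγt-fm mice, read here as mice with a RORγt fate-map reporter, reporter-positive and reporter-negative cells were taken apart, from mice with a Gata3flox label (RORγt-fmΔGata3: 3 fm_pos_Gata3flox and 3 fm_neg_Gata3flox libraries) and from mice without it (2 fm_pos and 2 fm_neg libraries). A further 2 libraries came from Gata3fl/flCreERT2 mice (Gata3KO) and 2 from C57BL/6 mice (WT), both given 5 mg tamoxifen per injection, 3 times, every other day. Single-cell RNA-seq covered 3 libraries: dorsal skin ILCs at day 10 and at day 0 after depilation, and a skin ILC library whose labels name no day. The labels give neither the reporter allele nor the Cre that drives deletion in the RORγt-fmΔGata3 mice, and they do not say whether libraries are separate animals, so the p-values below measure the spread between these libraries.

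Bulk libraries held 14450612 to 44098274 counts assigned to genes. Gata3, the deleted gene, stood at 155, 225 and 301 CPM (counts scaled to equal library totals) in fm_pos_Gata3flox, 266, 428 and 438 CPM in fm_neg_Gata3flox, 172 and 297 CPM in fm_pos and 394 and 501 CPM in fm_neg libraries, and at 293 and 311 CPM in Gata3KO against 407 and 554 CPM in WT libraries. None of these differences passed the test (smallest adjusted p 0.230), and counts over the whole gene do not check a deletion of part of it. The 10 listed ILC markers (among them Il7r, Id2, Rora and Thy1) were detected in every library, with summed levels of 8205 to 20837 CPM. Among the RORγt-fm libraries, those of fm_neg stood apart in other skin cells' markers. The 8 listed fibroblast genes summed to 418 to 1101 CPM in fm_neg_Gata3flox libraries and to 6136 to 8577 CPM in fm_neg libraries. The 10 keratinocyte genes summed to 485 to 629 CPM in fm_neg_Gata3flox libraries and to 2575 to 4737 CPM in fm_neg libraries. In the tamoxifen set the fibroblast genes summed to 3086 to 4228 CPM in Gata3KO and to 1049 to 3895 CPM in WT libraries. The 4 B cell markers summed to 0 to 12.04 CPM. The 8 listed T cell markers summed to 1148 to 2201 CPM over all bulk libraries, and both ends of this range were fm_pos libraries. Among them Cd3g had 850 and 202 CPM and Trac 248 and 54.6 CPM in the fm_pos libraries. A code in the deposited file names also differs between all libraries with and all without the Gata3flox label, so what it stands for and that label cannot be told apart.

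The start of the member transcripts was read from RefSeq promoter sequences (GRCm38.p6), which covered 63 of the 86 members with 75 annotated starts. A TOP-like tract was searched as a C followed by at least 4 letters that are each C or T, overlapping matches being joined. A match began at the annotated start in 14 of the 75 member promoters (18.7%), against 2.51% of all 32851 promoters. This includes promoters whose joined tract began further upstream, as in Rps6. Within 10 bases on either side a tract was present in 49.3% of member promoters and in 25.5% of all promoters. On the reverse strand it was present in 14.7% and 28.3%. Of the 19 members that rose in fm_neg_Gata3flox libraries (below), 13 have an annotated start here. Among these, 5 have a tract in the window and 1 has a match beginning at the start. Of the 64 tested members that did not pass, 48 have an annotated start. Among these, 28 have a tract in the window and 12 have a match beginning at the start. The 20 bases around the start are shown for members that the results turn on, with the start at the letter 11 of each and the tract in capitals. Rps15a, Rps9, Rps26, Rps2 and Rpl18 rose and carry a tract, Rps12, Rps13 and Rpsa rose without one, Rps6 is a long-studied TOP mRNA, and Rpl7l1 is a paralog whose level did not follow the others.
Rps15a: tttctgccatCTTCCCTCgc
Rps9: cttgtCTCTCTTTgtctcgg
Rps26: gcaagccgccggatCCTCTT
Rps2: gtcgagatctcgcgCTTCTT
Rpl18: ctcgcaggccgCTCTTTCCC
Rps6: gaagtcgggCCTCTTTTTCg
Rps12: tcatgcggccaccgccggcc
Rps13: caaacgtcggtgagtggcgt
Rpsa: ttatttaaggacgtcatttc
Rpl7l1: gctgcgcaagcgcagtagct
These windows lie at chr7:118116138-118116157 (Rps15a, minus strand), chr7:3704031-3704050 (Rps9, plus), chr10:128626497-128626516 (Rps26, minus), chr17:24720053-24720072 (Rps2, plus), chr7:45718061-45718080 (Rpl18, plus), chr4:86857358-86857377 (Rps6, minus), chr10:23787200-23787219 (Rps12, minus), chr7:116334181-116334200 (Rps13, minus), chr9:120127756-120127775 (Rpsa, plus) and chr17:46782647-46782666 (Rpl7l1, minus). A letter match around an annotated start describes the sequence only, since the start used in these cells was not measured.

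Ribosomal protein genes made up a larger share of the counts in libraries with the Gata3flox label. The 86 genes together took 4.50%, 4.14% and 3.31% of assigned counts in fm_pos_Gata3flox libraries and 5.05%, 5.10% and 5.27% in fm_neg_Gata3flox libraries. They took 3.42% and 2.74% in fm_pos and 3.07% and 3.14% in fm_neg libraries. In the tamoxifen set the shares were 4.34% and 3.47% in Gata3KO and 4.18% and 3.75% in WT libraries. The fm_neg_Gata3flox libraries thus formed a tight group above every other bulk library, and 1 of the 3 fm_pos_Gata3flox libraries lay within the range of the fm_pos libraries.

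The mean share was 5.14% ± 0.112 in fm_neg_Gata3flox against 3.10% ± 0.0479 in fm_neg libraries (SD, n = 3 and 2), a ratio of 1.66. It was 3.98% ± 0.607 in fm_pos_Gata3flox against 3.08% ± 0.482 in fm_pos libraries (SD, n = 3 and 2). With 3 libraries against 2, an exact two-sided permutation test cannot go below p = 0.2, which the reporter-negative difference reached and the reporter-positive difference did not (p = 0.4). By the lane code in the file names, the shares were 5.05% and 5.27% in fm_neg_Gata3flox against 3.14% in fm_neg libraries within one lane, and 5.10% in fm_neg_Gata3flox against 3.07% in fm_neg libraries within another; all reporter-positive libraries carry this second code. Among Gata3flox libraries the fm_pos share was below the fm_neg share in every library (exact two-sided permutation p = 0.1, the smallest that 3 against 3 allows). The shares of mitochondrially encoded genes moved with those of the members, at 3.75% to 4.12% in fm_neg_Gata3flox and 2.24% to 2.35% in fm_neg libraries, and at 2.58% to 3.72% in fm_pos_Gata3flox and 2.21% to 3.02% in fm_pos libraries. Within fm_pos and within fm_pos_Gata3flox the deepest library (40639618 and 44098274 counts) had the lowest member share. The deeper fm_neg library (21434504 counts, 3.07% against 3.14%) and the deeper WT library (16770525 counts, 3.75% against 4.18%) also had the lower share. In Gata3KO the deeper library (24576339 counts) had the higher share, and in fm_neg_Gata3flox the deepest (21867082 counts) had the middle one. The part of depth in these shares was not tested. In bulk RNA, fewer cells of a type and less RNA per cell cannot be told apart.

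The balance of summed counts between the subunits differed slightly, a measure in which members with many counts weigh most. Summed 60S counts were 1.461 to 1.496 times the summed 40S counts in fm_neg_Gata3flox libraries and 1.59 to 1.63 times in fm_neg libraries. The ratio was 1.47 to 1.53 in fm_pos_Gata3flox and 1.57 in both fm_pos libraries. Libraries with and without the label thus did not overlap for either reporter class (exact two-sided permutation p = 0.2 for each, the smallest that this form of the test allows). Gata3KO libraries stood at 1.45 and 1.53 and WT libraries at 1.41 and 1.51. The median log2 fold changes of the subunits did not show this difference. In fm_neg_Gata3flox against fm_neg libraries they were 0.844 for 40S and 0.851 for 60S members. For fm_pos_Gata3flox against fm_pos libraries they were 0.488 and 0.499.

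**Figure D1:**
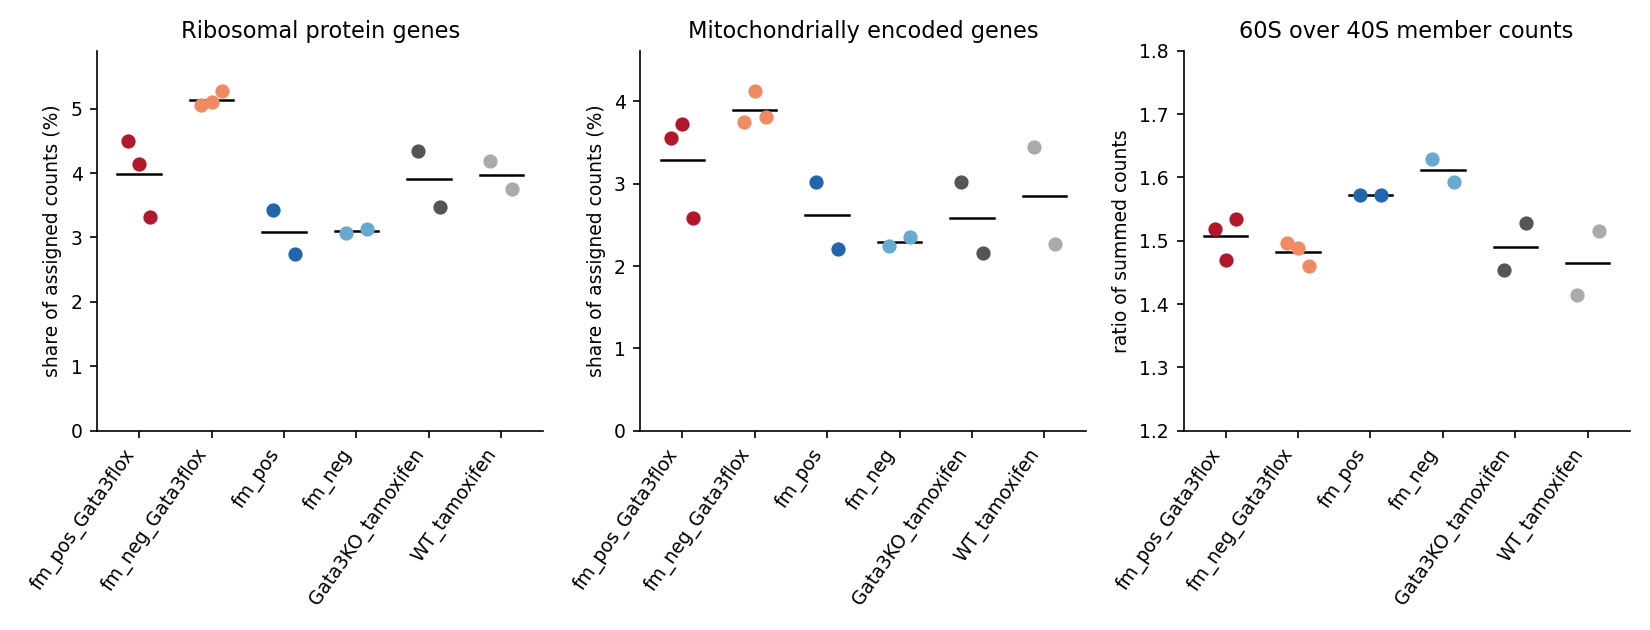
Share of assigned counts taken by the 86 ribosomal protein genes (left, %) and by mitochondrially encoded genes (middle, %), and the ratio of summed 60S to 40S member counts (right, axis from 1.2), with a point for each bulk library and a line at the group mean. The 3 fm_neg_Gata3flox libraries sit at 5.05% to 5.27% in the left panel, above every other library, and also lead the middle panel.

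In fm_neg_Gata3flox libraries against fm_neg libraries, ribosomal protein genes were higher as a group, by a median of 0.85 on the log2 scale over the 83 tested. The 19 genes that passed the test, all of them higher, included Rps12, Rps15a, Rpl30, Rps26 and Rps4x of the highest folds and Rpsa, Rps19 and Rpl5 of the best-known members. The comparison addresses what the Gata3flox label goes with in cells that do not carry the reporter.

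In edgeR's quasi-likelihood fit, with p-values adjusted over all 17456 genes by the Benjamini-Hochberg method and called under 0.05, 19 of the 83 tested members (22.9%) rose and 0 fell, whereas 1.33% of all genes were called, 0.596% as higher. A further 41 members had an adjusted p between 0.05 and 0.1. By sign, 81 members were higher and 2 lower, against 52.9% of all genes higher, and the median over all genes was 0.07. In 78 members every fm_neg_Gata3flox library lay above both fm_neg libraries, as in 21.9% of all genes. Both subunits took part, with 12 called of 32 tested 40S members and 7 of 51 60S members, and their medians were 0.84 and 0.85.

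Rps12, a small-subunit protein of the beak of the 40S head (chr10:23785183-23787275, minus strand, mm10), showed the largest fold among the called members. It had 146, 159 and 178 CPM in fm_neg_Gata3flox libraries against 60.9 and 67.3 CPM in fm_neg libraries, a log2 fold change of 1.33 ± 0.25 (SE, adjusted p = 0.0425). The groups did not overlap, and the distance between them was wider than the spread within either. Rps15a, a 40S protein (chr7:118104372-118116188, minus strand), had 342, 358 and 350 CPM in fm_neg_Gata3flox against 153 and 175 CPM in fm_neg libraries (1.09 ± 0.20, adjusted p = 0.0407). Rpl30, a large-subunit protein (chr15:34440505-34443640, minus strand), had 311, 319 and 321 CPM in fm_neg_Gata3flox against 140 and 167 CPM in fm_neg libraries (1.05 ± 0.18, adjusted p = 0.0337). In both genes the fm_neg_Gata3flox values lay close together and above both fm_neg values.

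Rps26, which contacts the mRNA at the exit of its channel, had 533, 494 and 518 CPM in fm_neg_Gata3flox against 245 and 273 CPM in fm_neg libraries, 0.99 ± 0.20 on the log2 scale (adjusted p = 0.0486). Rps4x, the X-linked form of a 40S protein, had 792, 777 and 760 CPM in fm_neg_Gata3flox against 360 and 422 CPM in fm_neg libraries, 0.99 ± 0.17 (adjusted p = 0.0326). Both sets of libraries were separated without overlap. Rpsa, a 40S protein also known as the laminin receptor, had 819, 796 and 928 CPM in fm_neg_Gata3flox against 400 and 539 CPM in fm_neg libraries, 0.85 ± 0.16 (adjusted p = 0.0414).

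At the lower end of the called folds, Rps2 had 1420, 1309 and 1339 CPM in fm_neg_Gata3flox against 766 and 901 CPM in fm_neg libraries, 0.70 ± 0.14 on the log2 scale (adjusted p = 0.0449). Rpl5, a protein of the 5S ribonucleoprotein particle that binds the p53 regulator Mdm2, had 580, 601 and 652 CPM in fm_neg_Gata3flox against 370 and 363 CPM in fm_neg libraries, 0.74 ± 0.14 (adjusted p = 0.0453). Both genes again separated the groups completely. Rps9, a 40S protein at the mRNA entry, had the smallest adjusted p of the members (0.0301), with 946, 1031 and 1070 CPM in fm_neg_Gata3flox and 585 and 567 CPM in fm_neg libraries. Rps16, whose tail reaches the tRNA on the 40S subunit, had 534, 559 and 550 CPM in fm_neg_Gata3flox and 313 and 310 CPM in fm_neg libraries, 0.81 ± 0.17 (adjusted p = 0.0498). Other called members were Rps27a, Rpl26, Rps13, Rpl7, Rpl21, Rpl18 and Rps19, with log2 fold changes of 0.83 to 0.94.

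Rps19, the 40S protein most often mutated in Diamond-Blackfan anaemia in humans, had 1395, 1549 and 1639 CPM in fm_neg_Gata3flox against 838 and 883 CPM in fm_neg libraries (adjusted p = 0.0461). Rps6, the target of the S6 kinases downstream of mTOR, had 880, 899 and 945 CPM in fm_neg_Gata3flox against 485 and 587 CPM in fm_neg libraries, 0.76 ± 0.16 on the log2 scale, and narrowly missed the threshold (adjusted p = 0.0569). Rpl11, the partner of Rpl5 in the 5S particle, had 409, 406 and 433 CPM in fm_neg_Gata3flox against 219 and 234 CPM in fm_neg libraries (0.88 ± 0.22, adjusted p = 0.0885). The groups of both genes did not overlap.

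The 3 P-stalk genes had unequal folds, none past the threshold. Rplp0, whose protein is the base of the stalk, had 1873, 1861 and 1917 CPM in fm_neg_Gata3flox against 1332 and 1444 CPM in fm_neg libraries, 0.44 ± 0.12 on the log2 scale (adjusted p = 0.1004). Rplp1 stood at 0.88 ± 0.18 (adjusted p = 0.0523) and Rplp2 at 0.93 ± 0.20 (adjusted p = 0.0584), with values in all 3 fm_neg_Gata3flox libraries above both fm_neg libraries. Rplp0 is in wide use as a normaliser in PCR assays, and its CPM differed less between these groups than that of most members.

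Some paralogs followed the family and others did not. Rpl22l1, a paralog that opposes Rpl22 in blood cell development of zebrafish, had 89.2, 105 and 97.5 CPM in fm_neg_Gata3flox against 41.4 and 45.8 CPM in fm_neg libraries, 1.16 ± 0.25 on the log2 scale (adjusted p = 0.0588), and Rpl22 itself had 89.5, 87.3 and 96.0 CPM in fm_neg_Gata3flox against 50.2 and 43.0 CPM in fm_neg libraries, 0.96 ± 0.25 (adjusted p = 0.0966). Both genes separated the groups without overlap. Rps27l, a paralog inducible by p53 in human cells, differed by 0.87 ± 0.24 (adjusted p = 0.111) and its partner Rps27 by 0.91 ± 0.20 (adjusted p = 0.0599). Rpl7l1, a paralog of Rpl7, was 1 of the 2 members lower in fm_neg_Gata3flox, with 53.1, 61.3 and 77.7 CPM there against 86.0 and 99.1 CPM in fm_neg libraries (−0.53 ± 0.33, adjusted p = 0.401). Rps10 was the other, at 3.24, 6.52 and 14.8 CPM in fm_neg_Gata3flox against 3.29 and 18.8 CPM in fm_neg libraries, where the groups overlapped.

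Leaving out any of the 5 libraries in turn left 0 called members, or 1 (Rpsa, adjusted p = 0.0364) without fm_neg replicate 2, while the median stayed between 0.81 and 0.87. DESeq2 called 70 members and 1584 of all 17456 genes. A model of these groups alone called 55 members and 367 of 15500 genes. With the lane code of the file names as a covariate 0 members and 77 genes were called, with a member median of 0.84. Whether the fibroblast and keratinocyte RNA that differs between these groups bears on the result was not tested.

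**Figure D2:**
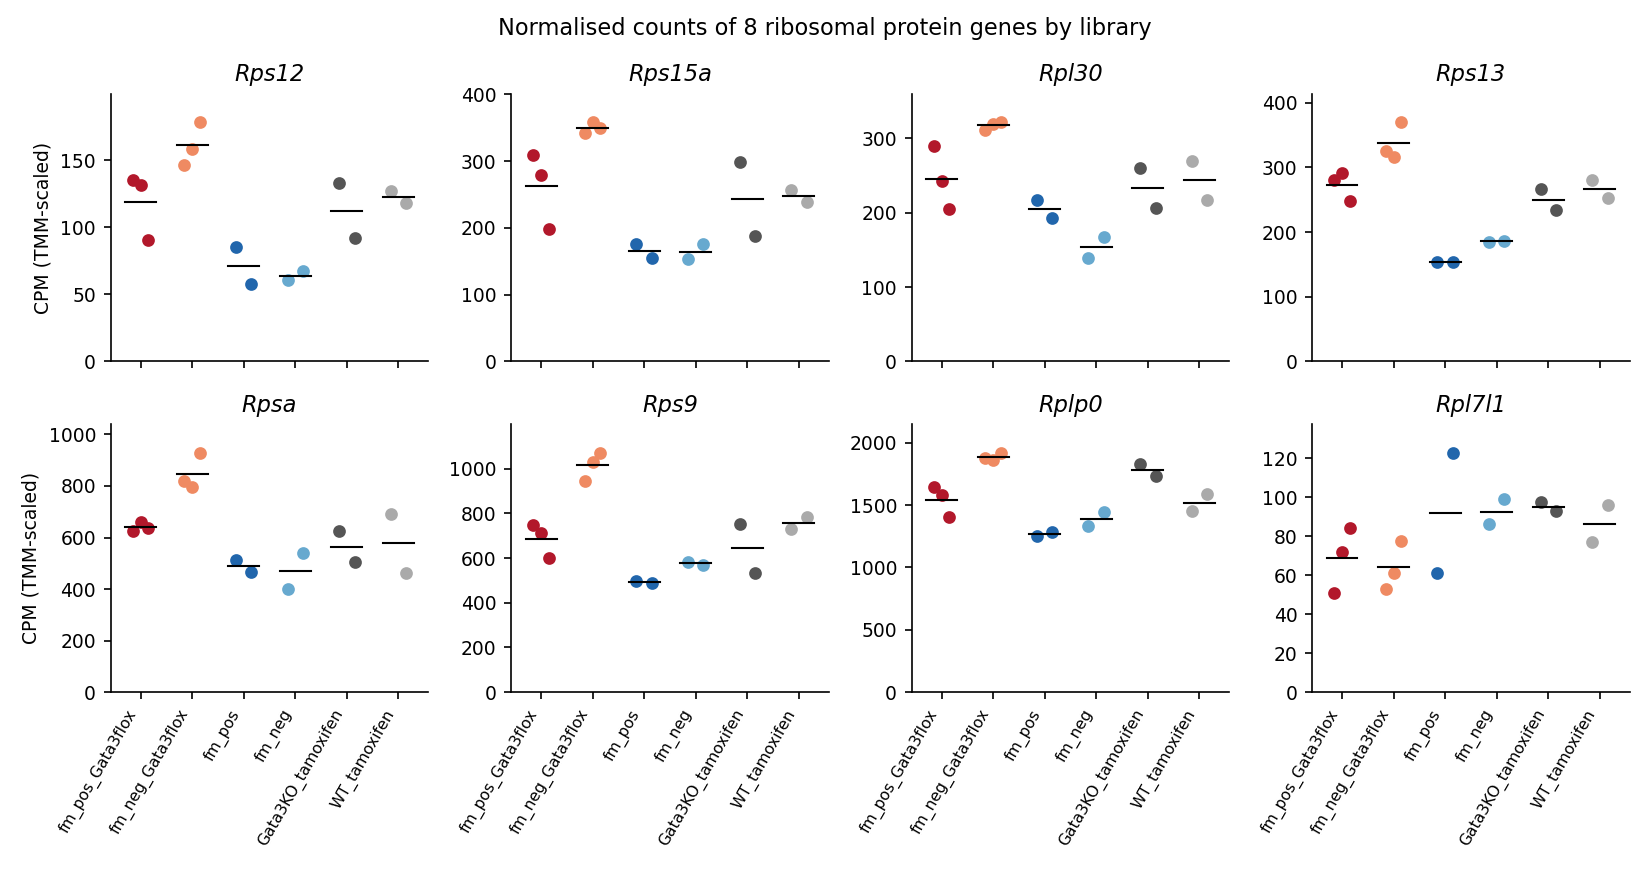
CPM with TMM-scaled library sizes for 8 ribosomal protein genes, with a point for each bulk library and a line at the group mean, each axis from 0. Rps12, Rps15a, Rpl30, Rps13, Rpsa and Rps9 are highest in the 3 fm_neg_Gata3flox libraries, Rplp0 differs less, and Rpl7l1 is not higher there.

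In the reporter-positive cells the same label went with a smaller difference. In fm_pos_Gata3flox against fm_pos libraries, 1 of the 83 tested members rose, Rps13, and 0 fell, while 1.52% of all genes were called, 1.11% as higher. By sign 79 members were higher and 4 lower, the median was 0.49 on the log2 scale over the members and 0.18 over all genes, and in 50 members the 3 fm_pos_Gata3flox libraries lay above both fm_pos libraries, as in 21.2% of all genes.

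Rps13, a 40S protein (chromosome 7), had 280, 292 and 247 CPM in fm_pos_Gata3flox libraries against 154 and 154 CPM in fm_pos libraries, a log2 fold change of 0.83 ± 0.15 (SE, adjusted p = 0.0314). It is also among the members that rose in the reporter-negative cells, with 326, 317 and 370 CPM in fm_neg_Gata3flox against 184 and 187 CPM in fm_neg libraries (0.86 ± 0.15, adjusted p = 0.0335). Rpl22l1 had the highest fold at 10 CPM or more, with 85.2, 62.6 and 53.9 CPM in fm_pos_Gata3flox against 37.4 and 29.2 CPM in fm_pos libraries (1.01 ± 0.25, adjusted p = 0.0786). Rpl10, an X-linked protein of the peptidyl transferase region, had 1158, 1120 and 894 CPM in fm_pos_Gata3flox against 673 and 536 CPM in fm_pos libraries (0.81 ± 0.18, adjusted p = 0.0645). The groups of these 3 genes did not overlap. The lowest folds at 10 CPM or more were those of Rpl13a (−0.46 ± 0.47), Rpl7l1 (−0.41 ± 0.33) and Rps4l (−0.36 ± 0.74), each with overlapping groups. Below that level Rps10, a 40S protein, had 2.50, 4.35 and 4.75 CPM in fm_pos_Gata3flox against 11.98 and 14.8 CPM in fm_pos libraries, without overlap (−1.79 ± 0.86, adjusted p = 0.287).

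None of the best-known members passed the test here. Rpsa had 626, 659 and 639 CPM in fm_pos_Gata3flox against 513 and 468 CPM in fm_pos libraries (0.39 ± 0.16, adjusted p = 0.225), and Rps6 had 743, 735 and 554 CPM in fm_pos_Gata3flox against 497 and 473 CPM in fm_pos libraries (0.48 ± 0.16, adjusted p = 0.164). In both genes every fm_pos_Gata3flox library was above both fm_pos libraries. Rplp0 stood at 0.28 ± 0.12, Rpl5 at 0.31 ± 0.14, Rps19 at 0.36 ± 0.16 and Rpl11 at 0.11 ± 0.22 on the log2 scale. Without fm_pos_Gata3flox replicate 3, which had the lowest member share of its group, 11 members were called, Rps13 among them (adjusted p = 0.0290). That fit called 283 of 17109 genes. With all libraries, DESeq2 called 1919 of 17456 genes in this comparison, which its member count below stands against. Rps13 lost its call without each of the other 4 libraries (adjusted p 0.0647 to 0.103), where Rpl18 was the only called member without fm_pos replicate 1 and 0 were called without the rest, and also with the lane code (0.0573) or these groups alone (0.154), while DESeq2 called 18 members.

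The difference between both label effects was tested as an interaction, and 0 of the 83 members passed it (smallest adjusted p = 0.206 for Rpl30, 6 members at an unadjusted p under 0.05, 0 by DESeq2), where 1.01% of all genes did. By sign 78 members had the smaller label difference in the reporter-positive cells, with a median interaction of −0.33 on the log2 scale against 0.07 over all genes. The larger effect in reporter-negative cells is therefore not shown to differ from that in reporter-positive cells for any single member.

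Among Gata3flox libraries most members were lower in reporter-positive than in reporter-negative cells, with none past the test, and among the other libraries they were split evenly. In fm_pos_Gata3flox against fm_neg_Gata3flox libraries 81 members were lower and 2 higher, with a median of −0.33 on the log2 scale against 0.00 over all genes. In fm_pos against fm_neg libraries 41 members were higher and 41 lower, with a median of 0.00. Both comparisons share libraries with those above.

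In the Gata3flox pair of groups 0 of 83 members were called by edgeR and 31 had an unadjusted p under 0.05. Of all genes 0.361% were called by edgeR (0.126% higher, 0.235% lower). DESeq2 called 6 members, all lower in fm_pos_Gata3flox, and 419 of all 17456 genes. In 58 members the 3 fm_pos_Gata3flox libraries lay below the 3 fm_neg_Gata3flox libraries, as in 9.18% of all genes. Rps9 had the smallest adjusted p (0.108), with 747, 711 and 602 CPM in fm_pos_Gata3flox against 946, 1031 and 1070 CPM in fm_neg_Gata3flox libraries, −0.56 ± 0.12 on the log2 scale. Rpl36a, a 60S protein, had the lowest fold at 10 CPM or more (−0.64 ± 0.19), also without overlap between groups. At the other end Rpl7l1 stood at 0.11 ± 0.29, Rps27l at −0.12 ± 0.21 and Rpl10 at −0.13 ± 0.16, each with overlapping groups.

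Among mice without the label, 0 of 83 members were called, 0 had an unadjusted p under 0.05 and DESeq2 also called 0, although 2.74% of all genes were called (0.624% higher, 2.11% lower). In 9 members both fm_pos libraries lay above both fm_neg libraries and in 10 below, as in 16.2% and 18.9% of all genes. Fold changes at 10 CPM or more ran from −0.39 ± 0.27 for Rpl22l1, −0.29 ± 0.18 for Rpl6 and −0.28 ± 0.15 for Rpl3, a protein of the peptidyl transferase centre, to 0.42 ± 0.19 for Rpl30, 0.44 ± 0.24 for Rpl11 and 0.72 ± 0.52 for Rpl13a. Rps12 had 85.4 and 57.4 CPM in fm_pos and 60.9 and 67.3 CPM in fm_neg libraries, and Rps15a 176 and 155 CPM in fm_pos and 153 and 175 CPM in fm_neg libraries. The reporter classes overlapped for both of these genes, and did not for Rpl30 (216 and 193 CPM in fm_pos, 140 and 167 CPM in fm_neg libraries) or Rpl22l1 (37.4 and 29.2 CPM in fm_pos, 41.4 and 45.8 CPM in fm_neg libraries).

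In the tamoxifen set, member levels of most genes overlapped between Gata3KO and WT libraries. Of 82 tested members 0 were called by edgeR or by DESeq2, 0 had an unadjusted p under 0.05, and 0% of the 13272 genes tested were called by edgeR. In 6 members both Gata3KO libraries lay above both WT libraries and in 3 below, as in 16.8% and 19.3% of all genes. The median over the members was −0.00 on the log2 scale, with 40 higher and 42 lower, and −0.02 over all genes. Rps12 had 133 and 91.9 CPM in Gata3KO against 127 and 118 CPM in WT libraries, and Rps15a had 299 and 188 CPM in Gata3KO against 257 and 239 CPM in WT libraries. For both genes the Gata3KO values fell on either side of the WT values. Rps4l, a relative of Rps4x, had the highest fold, with 17.4 and 13.6 CPM in Gata3KO against 4.70 and 5.31 CPM in WT libraries (1.63 ± 0.66, adjusted p = 0.742). Rpl22l1 (0.48 ± 0.33) and Rpl21 (0.36 ± 0.27) followed, and Rpl39 (−0.30 ± 0.34) and Rpl36a (−0.28 ± 0.26) were near the low end.

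**Figure D3:**
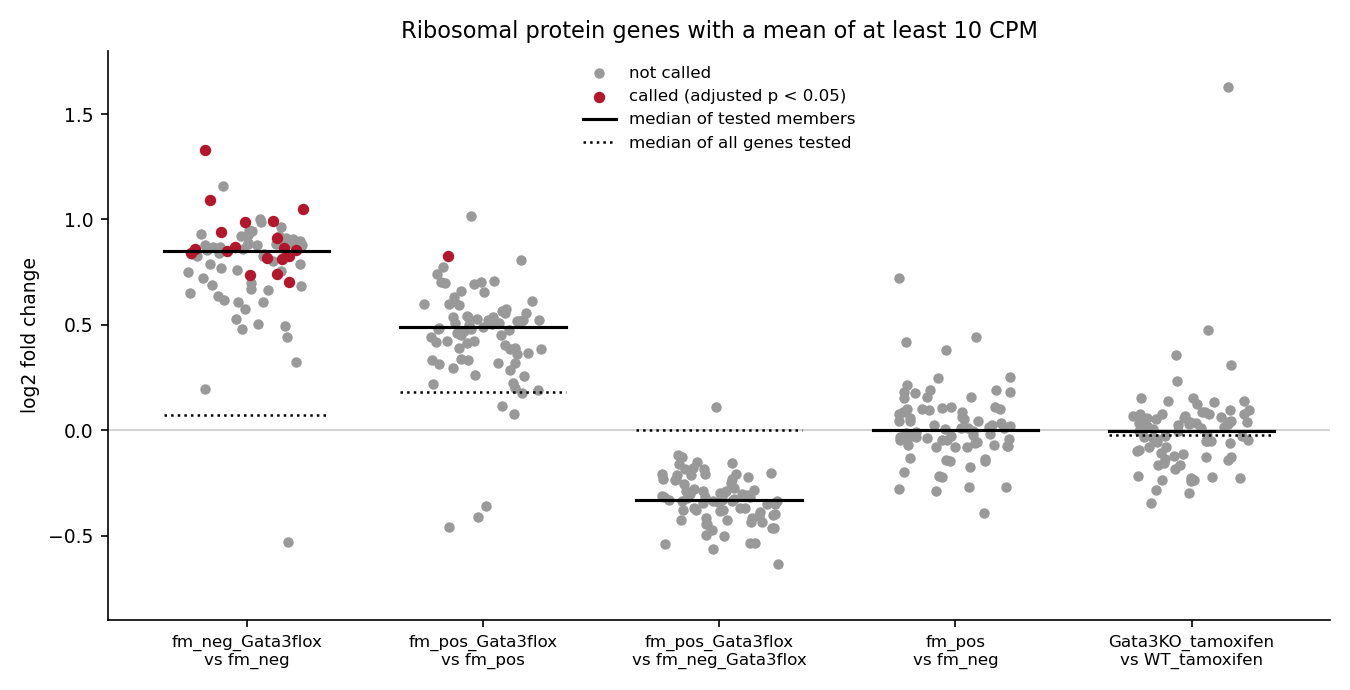
Log2 fold change (vertical axis) of each member with a mean of at least 10 CPM in 5 comparisons, with called members in red, a solid line at the median of the tested members and a dotted line at the median of all genes tested. Members cluster near 0.85 in fm_neg_Gata3flox vs fm_neg and near 0.00 in fm_pos vs fm_neg and in Gata3KO vs WT.

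Member levels ran over several orders of magnitude. On the RPKM scale (CPM divided by exon length), 59 of the 86 members averaged over 100 RPKM across the 14 libraries and 9 were under 10 RPKM. Among the highest means were those of Rplp1 (1467 ± 352 RPKM), Rpl36 (1157 ± 319), Rps27 (1155 ± 291) and Rplp0 (954 ± 133; SD, n = 14 libraries of all groups). Rplp1 was the highest of these 4 in each of the 14 libraries. The order among Rpl36, Rps27 and Rplp0 changed between libraries, so it is not fixed by these data. Rplp0 also varied least of these 4, with a coefficient of variation of 13.97% against 24.0% to 27.5%.

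The lowest detected members were Rpl3l (0.111 RPKM), Rpl32l (0.678), Rpl6l (0.788), Rpl39l (0.804) and Rps10 (3.20). Rpl3l, the form of Rpl3 typical of heart and skeletal muscle, had 10, 9 and 27 counts in fm_neg_Gata3flox libraries, 1 count in a single fm_pos_Gata3flox library and 0 counts in the other 10 libraries. Rpl39l, a paralog typical of testis, had 22, 28 and 12 counts in fm_pos_Gata3flox, 2, 20 and 9 in fm_neg_Gata3flox, 0 and 0 in fm_pos and 0 and 1 in fm_neg libraries, and 0 and 37 in Gata3KO and 12 and 37 in WT libraries. The genes Rps12l1 and Rpl10l had 0 counts in all 14 libraries. Rpl24, Rpl13a and Rps10 encode core ribosomal proteins, yet stood at 4.35, 5.34 and 3.20 RPKM. Exons of other annotated genes cover 47.0%, 35.4% and 28.7% of their exon length, and 39 of the 86 members share exon sequence with another gene, 3 of them over 50% of it. For 61 members the annotation also names at least 1 pseudogene, so levels of single members are uncertain where reads were shared between copies, and that was not tested.

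Member levels varied together across libraries. Over the 10 RORγt-fm libraries, 81 members were compared with the summed level of the others, and the median Pearson correlation of log2 CPM was 0.96, with 72 above 0.9. The libraries share group structure, so these values are a description. Rps23 (0.99), Rps15a (0.99) and Rps16 (0.99) followed the family most closely. Rpl7l1 (−0.69), Rps10 (−0.28), Rps4l (0.19) and Rpl13a (0.33) were the 4 below 0.5. Rpl6l (0.58), Rpl24 (0.76), Rps27l (0.78) and Rpl4 (0.85) also followed it less.

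Outside the members, the genes most like their summed level among 3484 genes with a mean of at least 50 CPM were Rps3a1 (Pearson correlation 0.99 over the 10 libraries), 2410006H16Rik (0.98), Polr1d (0.97), Eif4e2 (0.95) and Fau (0.95). Rps3a1 and Fau encode ribosomal proteins whose symbols the rule does not take in, Polr1d encodes a subunit shared by RNA polymerases I and III, and Eif4e2 encodes a cap-binding protein. Rps3a1 had 1004, 1066 and 1059 CPM in fm_neg_Gata3flox against 617 and 557 CPM in fm_neg libraries, and 874, 869 and 611 CPM in fm_pos_Gata3flox against 609 and 519 CPM in fm_pos libraries. Fau had 379, 389 and 404 CPM in fm_neg_Gata3flox against 199 and 222 CPM in fm_neg libraries.

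Other lists of the translation machinery also had positive medians in fm_neg_Gata3flox against fm_neg libraries, with few calls. Of all genes 1.33% were called in this comparison, 0.596% as higher and 0.739% as lower. Single calls here and in the next paragraph are therefore not read as results about their lists. The 6 ribosomal protein genes outside the rule had a median of 0.79 on the log2 scale, 6 of 6 higher and 0 called. Of 77 tested mitochondrial ribosomal protein genes 1 rose, Mrpl43 (70.5 ± 6.43 CPM in fm_neg_Gata3flox against 23.8 ± 10.7 CPM in fm_neg, SD, n = 3 and 2, adjusted p = 0.0485), and 64 were higher by sign with a median of 0.53. Of 30 initiation factors 1 rose, Eif3h, a subunit of the factor that binds the small subunit (416 ± 40.7 CPM in fm_neg_Gata3flox against 240 ± 12.5 CPM in fm_neg, adjusted p = 0.0485), with a median of 0.30. The 11 elongation and nascent chain factors had a median of 0.39 and 0 calls.

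Genes that make ribosomes were lower by median. Of 40 ribosome biogenesis genes 26 were lower and 14 higher, the median was −0.24, and 1 fell, Bysl, a factor of small-subunit maturation (25.3 ± 4.78 CPM in fm_neg_Gata3flox against 88.3 ± 11.4 CPM in fm_neg, adjusted p = 0.0380). Of 20 growth control genes 11 were higher and 9 lower, the median was 0.17, and 1 fell, Myc, a transcription factor that drives ribosome production (236 ± 29.0 CPM in fm_neg_Gata3flox against 526 ± 31.4 CPM in fm_neg, adjusted p = 0.0421). Of 16 p53 targets 7 were higher and 9 lower, the median was −0.18, and 1 fell, Cdkn1a, a cell cycle inhibitor (1014 ± 15.2 CPM in fm_neg_Gata3flox against 1644 ± 68.8 CPM in fm_neg, adjusted p = 0.0372). The snoRNA host transcripts, many of which also begin with TOP tracts, were higher by sign in 9 of 9 tested, with a median of 0.47 and 0 calls.

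Myc also fell in the reporter-positive cells of mice without the label, with 88.8 ± 26.6 CPM in fm_pos against 526 ± 31.4 CPM in fm_neg libraries (SD, n = 2 each, adjusted p = 0.00175), and with the label, with 81.9 ± 13.3 CPM in fm_pos_Gata3flox against 236 ± 29.0 CPM in fm_neg_Gata3flox libraries (n = 3 each, adjusted p = 0.0169). None of the ribosomal protein genes passed the test in either of these comparisons. Nop58, a core protein of the snoRNA particles that modify ribosomal RNA, fell in fm_pos against fm_neg libraries (70.3 ± 9.65 CPM in fm_pos, 249 ± 56.9 CPM in fm_neg, adjusted p = 0.00272), as did Pmaip1, a p53 target that promotes apoptosis (82.8 ± 1.71 CPM in fm_pos, 173 ± 17.8 CPM in fm_neg, adjusted p = 0.0252), while Mrpl54, a mitochondrial ribosomal protein gene, rose (90.9 ± 2.15 CPM in fm_pos, 42.5 ± 2.89 CPM in fm_neg, adjusted p = 0.0416). Cdkn1a rose in fm_pos_Gata3flox against fm_neg_Gata3flox libraries (1704 ± 133 CPM in fm_pos_Gata3flox, 1014 ± 15.2 CPM in fm_neg_Gata3flox, adjusted p = 0.0313), and Eif4e, the cap-binding initiation factor, in fm_pos_Gata3flox against fm_pos libraries (292 ± 31.0 CPM in fm_pos_Gata3flox, 151 ± 30.8 CPM in fm_pos, adjusted p = 0.0388). In the tamoxifen set 0 genes of these lists were called. The fm_pos libraries had 71.6 to 199 CPM of the fibroblast genes and 393 to 442 CPM of the keratinocyte genes. Both ranges lie far below those of the fm_neg libraries given above. Whether this RNA of other skin cells bears on the differences of listed genes from fm_neg libraries was not tested.

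In single cells the members took a larger part of the counts than in bulk libraries. They made up 13.5% of the counts at day 10 after depilation (95% exact binomial interval 13.4 to 13.5%, 443 cells), 12.5% at day 0 (12.4 to 12.5%, 553 cells) and 12.2% in the skin ILC library (12.2 to 12.3%, 4103 cells). The labels of the skin library give no day, and its share was 12.8% of the counts outside mitochondrially encoded genes, which are not among the genes listed with the dorsal libraries. Each is 1 library, so there is no test between days, and the intervals cover counting error only. Bulk and single-cell counts come from different assays. Whether the assay or the cells make the difference in share between them was not tested.

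The single cells varied more than the libraries. The share in single cells ran from 8.16% to 19.1% at day 10 (5th to 95th percentile, median 13.6%), from 7.61% to 18.7% at day 0 (median 12.4%) and from 7.31% to 19.7% in the skin library (median 12.2%). Shallower cells had the higher share: below the median depth of the skin library the median share was 13.5%, above it 11.4%. Cells at day 10 were slightly shallower, with a median of 1811 counts against 1984 at day 0. After thinning each cell to 1000 counts, leaving out 31 cells at day 10, 34 at day 0 and 168 of the skin library, the medians were 13.5%, 12.4% and 12.3%. Thinning leaves the expected share of a cell as it was, so it does not remove the link with depth. The shallower cells had a median of 14.1% at day 10 and 12.9% at day 0, and the deeper cells 13.1% at day 10 and 11.98% at day 0; the part of depth in the difference between days was not tested. A free-RNA share was not measured here, and its part in these values was not tested.

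Most members had a ratio slightly above 1 between days, many of them within counting error. Of 77 members with at least 100 counts over both days, 72 had a day 10 over day 0 ratio above 1, the median ratio was 1.07, and the median over 3362 genes with as many counts was 0.978. None of them was past a ratio of 1.5 in either direction, which 4.28% of all genes exceeded upwards and 5.44% downwards (0.625% and 0.565% for a ratio of 2). The highest ratio was that of Rpl21, a 60S protein, with 8.53 counts per 10000 at day 10 and 5.85 at day 0 (ratio 1.46, counting interval 1.31 to 1.62), followed by Rpl3 (1.26, 1.16 to 1.37), Rpl13a (1.22, 0.944 to 1.58), Rpl29 (1.17, 1.06 to 1.30) and Rps3 (1.16, 1.09 to 1.24). The lowest were Rpl15 (0.921, 0.763 to 1.11), Rps27l (0.935, 0.699 to 1.24), Rps18 (0.988, 0.904 to 1.08), Rpl31 (0.993, 0.936 to 1.05) and Rpl10a (0.9995, 0.817 to 1.22), whose intervals all include 1. Intervals of many members with a ratio above 1 also include 1, among them Rpl30 (1.01, 0.933 to 1.09), Rpsa (1.01, 0.933 to 1.10) and Rplp1 (1.03, 0.987 to 1.07).

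**Figure D4:**
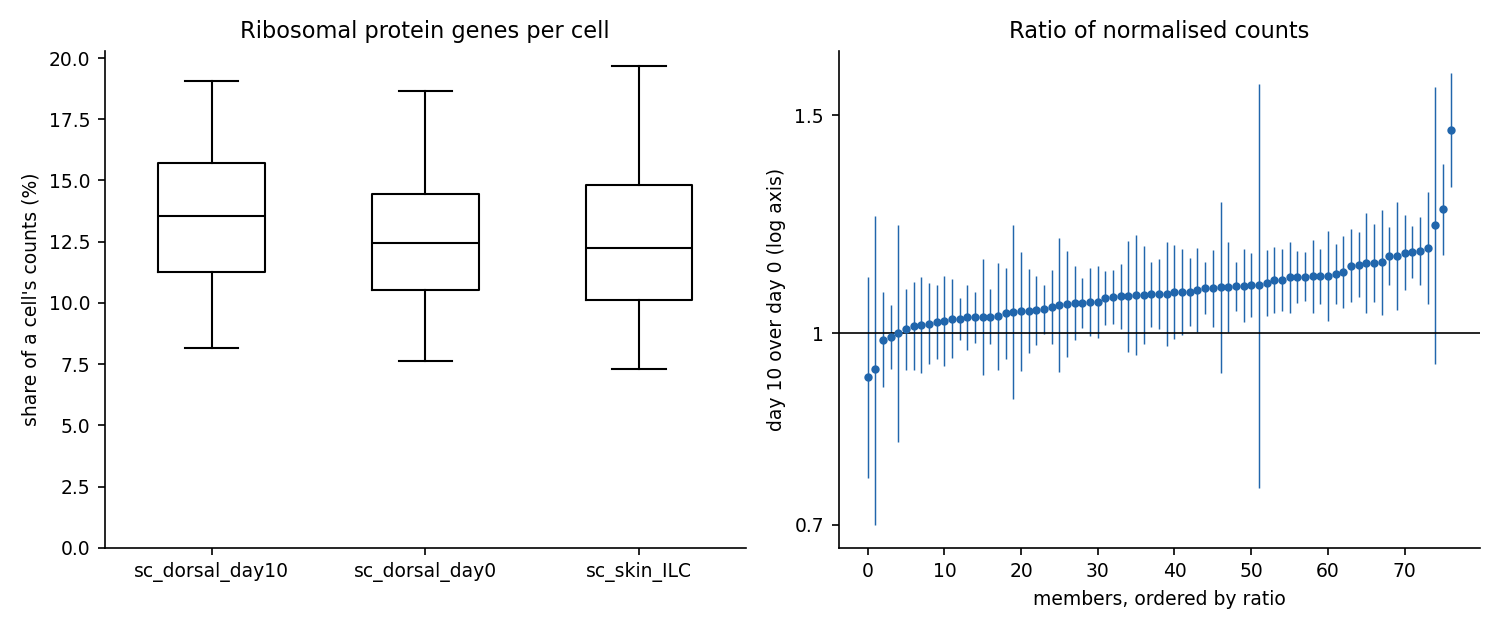
Left, share of each cell's counts in ribosomal protein genes (%; box at the quartiles, line at the median, whiskers at the 5th and 95th percentiles) in the day 10, day 0 and skin libraries, with medians of 13.6%, 12.4% and 12.2%. Right, day 10 over day 0 ratio of 77 members on a log axis with counting intervals, of which 72 lie above 1 and none above 1.5.

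The share differed little between cells with and without a count of a marker. In the skin library it was 11.6% in 294 cells with a count of the proliferation genes Mki67 or Top2a and 12.3% in 3809 cells without, with median depths of 2682 and 2334 counts. Cells with a Gata3 count had 12.1% and those without 12.8% (median depths 2498 and 1799), and at day 10 the values were 13.3% and 14.1% (1981 and 1491), so in both the deeper class had the lower share. Cells with a Cd74 count, a gene of antigen presentation, had 11.7% in the skin library against 12.4% in cells without. These classes differ in depth in the direction that goes with a lower share. Other classes were mixed, with the cells that had a count deeper in each. With a count of Cd3d, Cd3e or Cd3g the share was 13.64% against 13.42% at day 10, 12.51% against 12.46% at day 0 and 11.87% against 12.30% in the skin library. With an Il1rl1 count it was 13.43% against 13.47% at day 10, 12.55% against 12.45% at day 0 and 12.15% against 12.25% in the skin library. Depth's part in all these classes was not tested.

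The single-cell libraries ranked the members in nearly the same order as each other and in another order than the bulk libraries. Over 84 members, Spearman's rho of the counts was 0.995 between day 10 and day 0 and 0.946 between the skin library and day 0, while between mean bulk RPKM and skin counts it was 0.342. Single-cell counts are not scaled by gene length. Rplp1 led both, with 52.8 counts per 10000 in skin cells. Of the counts of all members, Rps12 took 8.39 times and Rpl39 7.28 times as large a part in skin cells as in the bulk libraries, and Rps27l took 0.172 and Rpl36 0.185 times as large a part. Rpl17 ranked second in skin cells (39.8 counts per 10000) and 22nd by bulk RPKM. Both assays listed Rpl24, Rpl13a and Rps10 low, with at most 0.535 counts per 10000 in skin cells.

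**Figure D5:**
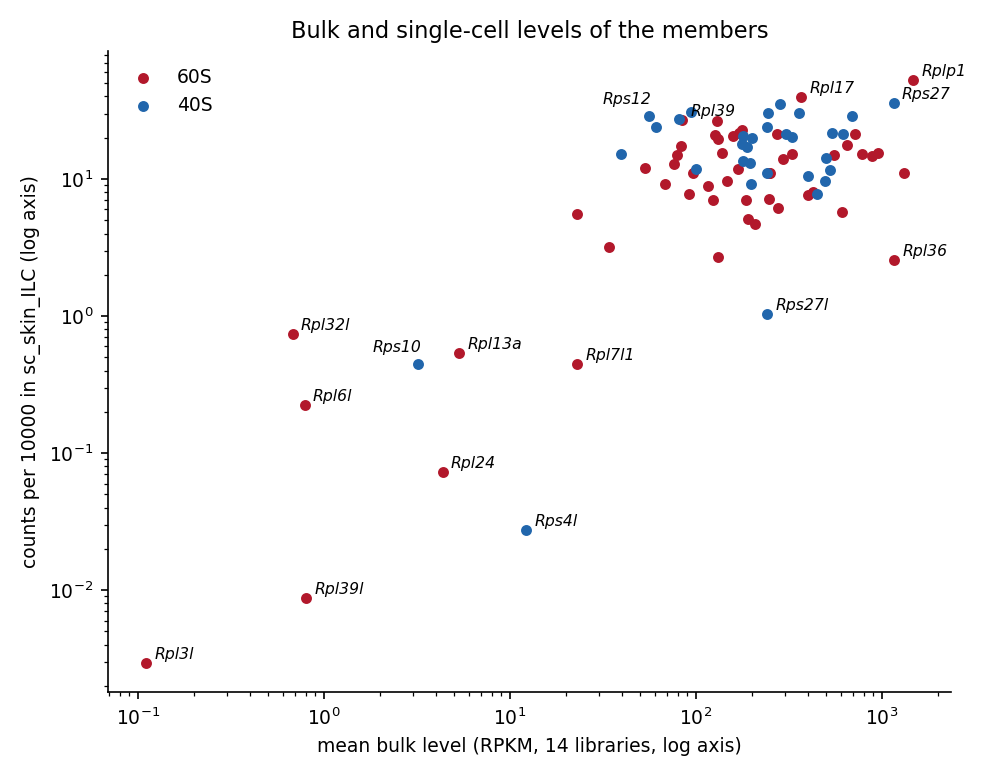
Mean bulk level of each member (RPKM, log axis) against its counts per 10000 in the skin single-cell library (log axis), 60S members in red and 40S members in blue, members with 0 bulk counts not drawn. Rplp1 is highest on both axes, Rps12 and Rpl39 lie high in single cells for their bulk level, and Rpl36 and Rps27l lie low.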

How the data were processed

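The deposited bulk values are raw counts per gene and the deposited single-cell values raw counts per gene and cell, both not normalised. Reads were aligned to mm10 with HISAT2 2.1.0 and counted with featureCounts of Subread, per the submitters' processing notes; strand and multi-mapping settings and the single-cell platform are not given in the sources used here. The members and lists were chosen with earlier results of these data known.

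Counts were fitted with edgeR 4.0.16 in R 4.3.3 (filterByExpr, TMM, quasi-likelihood), with 1 model of the 10 RORγt-fm libraries (17456 genes) and 1 of the 4 tamoxifen libraries (13272 genes). A gene was called at a Benjamini-Hochberg adjusted p under 0.05 over all genes tested. CPM are TMM-scaled, except for Gata3, markers and shares, which use library totals; RPKM use the file's gene length. DESeq2 1.42.0, other scalings and filters, lane, replicate block and leaving out each library were alternatives. Named were called members (of more than 10, the 5 highest and 5 lowest folds) or else the 3 highest and 3 lowest at 10 CPM or more, a fixed set of members and paralogs, the 5 highest and lowest levels, and the 5 most similar genes.

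Kept cells had at least 200 genes and at most 10% of counts in mitochondrially encoded genes; Scrublet in scanpy 1.11.5 predicted 11 doublets at day 10, 11 at day 0 and 3 in the skin library, which were left out. The skin and day 0 libraries share 4 cell names. Start sequences are from RefSeq (GRCm38.p6). Intervals cover counting error only. Results for a few members are not reported here.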

Additional observations from a re-analysis of the deposited data

Results flagged for a closer look

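The reporter difference of Nop58, a ribosome biogenesis gene, differed with the Gata3flox label by the interaction term of the edgeR fit (1.35 on the log2 scale, SE 0.26, adjusted p = 0.0472); 0 members of the ribosomal protein genes did so.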

How the results depend on the processing

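Medians over the members moved by less than the spread between libraries under the alternatives, except in Gata3KO against WT libraries without Gata3KO replicate 1 (−0.20; leaving out each library gave −0.20 to 0.15). The medians of the 3 comparisons away from 0 kept their direction under every alternative run. Counts of called members moved more. For fm_neg_Gata3flox against fm_neg they were 6 with DESeq2's size factors, 10 without a factor, 22 with TMM factors from the other genes, 62 without a filter, 37 at a mean of 5 CPM or more, 70 with DESeq2, 55 with these groups alone, 0 with lane and 0 to 1 without each library. For fm_pos_Gata3flox against fm_pos they were 4 without a filter, 3 at 5 CPM, 18 with DESeq2, 0 with lane or these groups alone and 0 to 11 without each library. DESeq2 gave 6 for fm_pos_Gata3flox against fm_neg_Gata3flox, where it called 419 of all genes. Calls over all genes moved too. For fm_neg_Gata3flox against fm_neg they were 233 in the main fit, 893 without a filter and 425 at 5 CPM. They were 1584 with DESeq2, 367 with these groups alone and 77 with lane. For fm_pos_Gata3flox against fm_pos they were 266 in the main fit, 974 without a filter, 354 at 5 CPM and 1919 with DESeq2. With fewer libraries each fit has fewer degrees of freedom; otherwise the cause was not tested. Whether replicate numbers pair the libraries was not settled (correlation of deviations from group means −0.01 to 0.24). Where both groups hold 2 libraries, both numbers give the same value by construction, which cannot decide it. In fm_pos_Gata3flox against fm_neg_Gata3flox the correlations were 0.24, 0.04 and 0.10. A fit with the replicate block called 0 members in each comparison, with a median of 0.90 for fm_neg_Gata3flox against fm_neg. An alternative chosen after seeing the data, the 16 members without exon overlap or named pseudogene, left each median within the spread. Lane was not fitted in the tamoxifen set. Of 458 values for named members under alternatives 363 stayed on the same side of the threshold, called or not, 89 lost a call, 6 gained one and none reversed.

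The mean share was 3.18% in fm_neg and 5.35% in fm_neg_Gata3flox outside mitochondrial genes, and 3.24% and 5.37% with the ribosomal protein genes outside the rule. Without each library it ran from 2.74 to 3.42% in fm_pos, 3.07 to 3.14% in fm_neg, 3.73 to 4.32% in fm_pos_Gata3flox, 5.08 to 5.18% in fm_neg_Gata3flox, 3.47 to 4.34% in Gata3KO and 3.75 to 4.18% in WT libraries. In the skin cells it was 12.3% in all deposited cells and 12.8% outside mitochondrial genes.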
